A study of Mus musculus with 24 samples.

Results

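The comparison described here sets the transcriptional response of CD8 T cells to a transplanted B-cell lymphoma against that of CD4 T cells labelled as from the same Atm knockout mice. For each gene it is the CD8 minus CD4 difference in the lymphoma pools less the CD8 minus CD4 difference in the control pools, on the log2 scale. It uses the 12 Atm knockout libraries of 24 in the series, 3 in each of 4 groups, and the 12 wild-type libraries enter only the estimate of spread and a parallel contrast. All mice were C57BL/6N. The knockout mice were Atm-/- and either received no transplant (CD4 control and CD8 control) or carried a transplanted B-cell lymphoma (CD4 lymphoma and CD8 lymphoma), and the wild-type mice were Atmwt/wt with the same arms. Splenic T cells were enriched with an EasySep kit. By label each knockout pool of 2 mice gave 1 CD4 and 1 CD8 library, and the contrast is taken within these pools. The wild-type control pools held 3, 2 and 2 mice, and each wild-type lymphoma pool was 1 mouse. By the mouse identifiers in the labels, the 3 pools of a condition are separate mice. How CD4 and CD8 cells were separated, which Atm allele was used, the origin of the lymphoma, the time after transplantation and the age of the mice are not given in the sources used here.

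CD4 T cells recognise antigen on major histocompatibility complex (MHC) class II molecules and mainly help other cells, whereas CD8 T cells recognise it on class I molecules and can kill. Atm is the kinase that signals DNA double-strand breaks, including those made when antigen receptor genes are rearranged. In the mouse, MHC class II genes are driven by the transactivator Ciita and are expressed mainly by B cells, dendritic cells and macrophages and little by T cells, while the B cell antigen receptor signals through Cd79a and Cd79b. In RNA from a whole isolate, fewer cells of a type and less RNA per cell cannot be told apart.

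Atm itself was read in every knockout library. In CPM, which are counts relative to the scaled library total, it was at 79.7, 84.9 and 82.2 in the CD4 control pools 1 to 3, 70.4, 102 and 24.0 in the CD4 lymphoma pools, 89.1, 109 and 113 in the CD8 control pools, and 87.8, 97.4 and 40.5 in the CD8 lymphoma pools. The deposited counts are 3′ tags, so a transcript with a deletion upstream is still counted and these values do not check the genotype. The co-receptor genes matched the labels in all 12 libraries. Cd8a lay at 149 to 474 CPM in the CD8 libraries and at 4.4 to 23.1 CPM in the CD4 libraries, with the lowest CD8 value in lymphoma pool 1 and the highest CD4 value in lymphoma pool 2. Cd4 lay at 63.5 to 120.0 CPM in the CD4 libraries and at 1.61 to 8.31 CPM in the CD8 libraries, and Zbtb7b, the transcription factor of the CD4 lineage, at 46.9 to 88.0 and 9.02 to 23.9 CPM. The knockout libraries held 6541484 to 10196062 counts and 16001 to 17707 genes with a count. The CD8 library of lymphoma pool 1 and the CD4 library of lymphoma pool 3 stood apart. In the first, the 25 pan-T cell genes summed to 2224 CPM, against 2720.0 to 5743 in the others, and its summed B cell, MHC class II, red cell and neutrophil lists were the highest of the 12, as given beside each group. In the second, the S phase genes summed to 4187 CPM, against 1312 to 2178 in the other CD4 libraries, and the pan-T cell genes to 2720.0 CPM, the lowest of the CD4 libraries. The high S phase sum was shared by the CD8 library of that pool, at 3254 CPM against 1267 to 2782 in the other CD8 libraries. Of the 13232 genes tested, 1480 had their highest knockout level in the first and 2154 in the second.

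In the knockout mice 25 genes of 13232 tested had a higher lymphoma response in CD8 than in CD4 cells (edgeR quasi-likelihood test, Benjamini-Hochberg adjusted p under 0.05), which is 0.189% of the genes tested, and 0 genes (0%) had a lower one. A gene is said to pass only by this test unless another tool is named. The genes that passed include the class II transactivator Ciita and the class II genes H2-Aa and H2-DMb2, the B cell genes Cd79b, Ly6d, Bank1 and Fcrl1, the Rac activator Tiam1, the kinase scaffold Trib1, the anti-apoptotic Bcl2a1d and the interferon-induced exonuclease Isg20. Leaving aside the pseudogene Rps16-ps2, the difference between the responses of the 24 other genes ran from 1.51 to 5.92 on the log2 scale, with a median of 2.25 against 0.01 over all genes tested. At an unadjusted p under 0.05, 762 genes were higher (5.76%) and 229 lower (1.73%). The counts of list members at that level below are to be read beside these shares. The pools of the 2 conditions did not overlap in 1053 genes on the higher side (7.96%) and 464 on the lower side (3.51%).

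In the controls all 24 genes were lower in CD8 than in CD4 cells on average, and in the lymphoma groups 23 of the 24, all but Tiam1, were higher in CD8. In the control pools their median CD8 minus CD4 difference was -1.20, -1.50 and -1.30 on the log2 scale, and in each control pool 0 of the 24 lay above 0. In the lymphoma pools the median was 1.76, 0.84 and 0.12, and 23, 21 and 15 of the 24 genes lay above 0. Pool 1 carried the highest and pool 3 the lowest median. Of the 24 genes, 20 reached their highest level of all 12 libraries in CD8 lymphoma pool 1, as did 1480 of the 13232 genes tested. Without lymphoma pool 1 the median difference of the 24 genes was 1.79, without pool 2 it was 2.33 and without pool 3 it was 2.63.

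**Figure D1:**
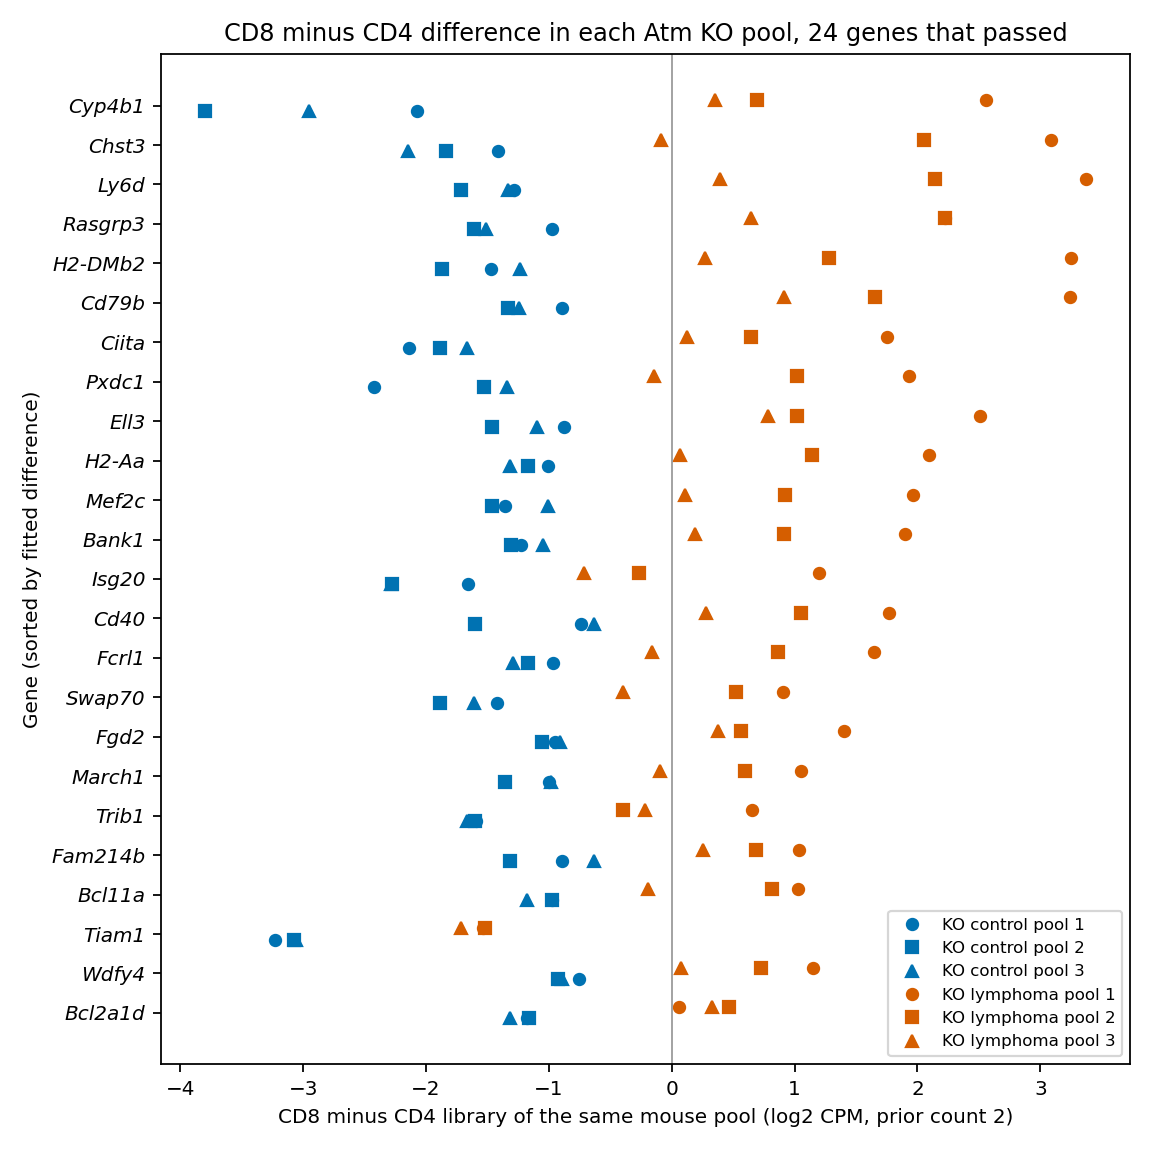
CD8 minus CD4 difference within each Atm knockout mouse pool (horizontal axis, log2 CPM with a prior count of 2) for 24 genes that passed, 1 line a gene; blue marks are control pools and orange marks lymphoma pools, with the pool number given by the shape. Every blue mark lies below 0 and to the left of the orange marks of its gene, and lymphoma pool 1 is mostly the rightmost. The genes were chosen on the difference between blue and orange marks.

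The number of genes that pass depended on the pools and on the fit. It was 4, 1 and 2 without control pools 1, 2 and 3, 14 without lymphoma pool 2, 189 without lymphoma pool 3 (177 higher, 1.32%, and 12 lower, 0.0892%), 11 with DESeq2 size factors, 92 with DESeq2 (90 higher and 2 lower), 142 with limma-voom, all higher, 1 with the knockout libraries fitted alone and 0 without the pool as a block. The 1 gene with the knockout libraries alone was the pseudogene Rps16-ps2. Of the 24 other genes 0 passed in that fit, and 3, 0 and 1 passed without control pools 1, 2 and 3. With the B cell score of each library as a covariate, an alternative added after the data were seen, 0 of the 24 genes passed, all 24 remained above 0, and their median was 1.04. With the erythroid score as covariate these were 0, 24 and 1.18. Both scores themselves varied along this contrast. The SE of Tiam1 was 0.23 without a covariate, 0.36 with the B cell score and 0.35 with the erythroid score.

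The MHC class II genes were higher in the CD8 response in 3 of 11 members, and none was lower. Ciita, the transactivator on which class II transcription depends (chr16:10480059-10528418, GRCm38), stood at 27.1, 33.3 and 40.4 CPM in the CD4 control pools and at 10.1, 8.22 and 2.26 CPM in the CD4 lymphoma pools. In CD8 cells it stood at 5.96, 8.85 and 12.6 CPM in the control pools and at 34.6, 13 and 2.48 CPM in the lymphoma pools. In CD4 cells every lymphoma pool lay below every control pool, whereas the CD8 lymphoma pools ran from below to above the CD8 controls. Its response differed by 2.92 ± 0.37 (log2, SE, 3 pools a condition, adjusted p = 0.0062 by edgeR) and by -0.31 in wild-type mice.

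H2-Aa encodes the alpha chain of the class II molecule I-A, and H2-DMb2 a chain of H2-DM, which loads peptide onto it. Their promoters are shown because both genes passed and both hold the core of the Y box, a motif of class II promoters. Each is 300 bases from RefSeq, GRCm38.p6, 250 bases before to 50 after the start, at chr17:34287774-34288073 (minus strand) for H2-Aa and chr17:34144999-34145298 (plus strand) for H2-DMb2, written 5′ to 3′ with GATTGG in capitals.
H2-Aa: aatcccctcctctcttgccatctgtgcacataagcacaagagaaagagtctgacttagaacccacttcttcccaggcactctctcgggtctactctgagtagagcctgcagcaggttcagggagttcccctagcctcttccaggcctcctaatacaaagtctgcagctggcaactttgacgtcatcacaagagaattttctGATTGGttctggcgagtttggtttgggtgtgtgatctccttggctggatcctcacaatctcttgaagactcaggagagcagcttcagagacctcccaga
H2-DMb2: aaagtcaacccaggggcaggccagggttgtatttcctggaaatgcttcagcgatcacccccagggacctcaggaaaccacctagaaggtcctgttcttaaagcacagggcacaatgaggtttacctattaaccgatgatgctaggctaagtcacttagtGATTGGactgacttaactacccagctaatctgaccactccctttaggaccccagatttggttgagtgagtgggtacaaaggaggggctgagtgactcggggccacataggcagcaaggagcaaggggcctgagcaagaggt
GATTGG, searched on both strands as GATTGG or CCAATC, was found for 8 of the 8 class II genes that matched the RefSeq table, of 11 genes. A gene was counted where any of its promoters held the motif. Among all 32851 RefSeq promoters it was in 5292 (16.1%), among the 17 matched B cell genes in 2, and among the 18 matched of the 25 genes that passed in 6. A match is a description of the letters, not a binding site.

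H2-Aa was read at 150.1, 159.9 and 219 CPM in the CD4 control pools, 64.5, 49.7 and 24.6 CPM in the CD4 lymphoma pools, 74.7, 71.0 and 88.0 CPM in the CD8 control pools and 276, 110.1 and 25.7 CPM in the CD8 lymphoma pools. H2-DMb2 was read at 42.0, 47.4 and 55 CPM, 10.5, 9.76 and 3.16 CPM, 15, 12.8 and 23.3 CPM, and 102, 24.1 and 3.85 CPM in the same order. Both genes were lower in every CD4 lymphoma pool than in any CD4 control pool, above the CD8 controls in CD8 lymphoma pools 1 and 2, and below them in pool 3. The difference between responses was 2.32 ± 0.39 for H2-Aa (log2, SE, adjusted p = 0.0439 by edgeR) and 3.39 ± 0.54 for H2-DMb2 (adjusted p = 0.04). H2-DMb1, a close copy of H2-DMb2 with which reads could be shared, had 1.57 ± 0.43 and did not pass (adjusted p = 0.255).

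The other 8 class II members did not pass, and all lay above 0. H2-Ab1, the beta chain of I-A, had a difference of 2.35 ± 0.57 (log2, SE, adjusted p = 0.209 by edgeR), the invariant chain Cd74 2.30 (adjusted p = 0.251) and H2-Ob, a chain of the H2-DM inhibitor H2-O, 2.07 ± 0.42 (adjusted p = 0.107). The median of the 11 genes was 2.26 in knockout and -0.03 in wild-type mice. By their CD8 minus CD4 difference, the lymphoma pools lay above the control pools without overlap in 9 of 11 members, against 7.96% of all genes tested. In CD4 cells the lymphoma pools lay below the controls in 11 of 11, against 9.73% of all genes tested. In CD8 cells 0 of 11 lay above the controls in every lymphoma pool, and no member was at 0 in any knockout library. The summed class II level was 666 to 841 CPM in the CD4 controls, 280.4, 234 and 154 CPM in CD4 lymphoma pools 1 to 3, 329 to 399 CPM in the CD8 controls and 1357, 445 and 151 CPM in CD8 lymphoma pools 1 to 3. Without 1 pool at a time the median ran from 1.48 to 2.79, and with the B cell score as covariate it was 0.18. The count of 3 became 1, 0 and 1 without control pools 1 to 3, 1 and 9 without lymphoma pools 2 and 3, 1 with DESeq2 size factors, 1 without a filter on low counts (H2-Aa and H2-DMb2 had adjusted p = 0.143 and 0.138 by edgeR), 6 with DESeq2 and 8 with limma-voom.

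Of the B cell genes 4 of 30 tested passed, all higher. Cd79b, a signalling chain of the B cell antigen receptor (chr11:106311341-106314762), was read at 44.5, 49.7 and 65.3 CPM in the CD4 control pools, 10.7, 8.83 and 6.2 CPM in the CD4 lymphoma pools, 23.8, 19.6 and 27.4 CPM in the CD8 control pools and 103, 28.3 and 11.9 CPM in the CD8 lymphoma pools. CD4 lymphoma pools were below all CD4 controls, and CD8 lymphoma pool 1 was above and pool 3 below all CD8 controls. The response differed by 3.21 ± 0.51 (log2, SE, adjusted p = 0.04 by edgeR), against -0.76 in wild-type mice. Ly6d, a surface marker of the B lineage also carried by plasmacytoid dendritic cells, was read at 56.5, 64.3 and 71.6 CPM, 14.2, 6.47 and 6.65 CPM, 23.1, 19.4 and 28.3 CPM, and 150.0, 29.3 and 8.82 CPM in the same order, a difference of 3.61 ± 0.56 (adjusted p = 0.04). The spread of Ly6d among the CD8 lymphoma pools, from 8.82 to 150.0 CPM, enclosed all its other values except 2 of the CD4 lymphoma pools. Bank1, an adaptor of B cell receptor signalling, differed by 2.28 ± 0.34 (adjusted p = 0.0149) and the Fc receptor-like Fcrl1 by 2.09 ± 0.38 (adjusted p = 0.04).

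Several well-known B cell genes did not pass. The surface protein Ms4a1 had a difference of 3.78 (log2, adjusted p = 0.251 by edgeR), the complement receptor Cr2 3.70 ± 0.67 (adjusted p = 0.0943), the immunoglobulin D heavy chain Ighd 3.77 ± 0.68 (adjusted p = 0.0881) and the Src-family kinase Blk 4.24 ± 0.80 (adjusted p = 0.0539). All 30 members lay above 0, and the tetraspanin Cd37 was the lowest at 0.64. By edgeR 28 were higher at an unadjusted p under 0.05, against 5.76% of all genes tested. The median was 2.95 in knockout and -0.31 in wild-type mice. The CD4 lymphoma pools lay below the CD4 controls in 27 of 30 members (9.73% of all genes), the CD8 lymphoma pools above the CD8 controls in 2 of 30 (14.5% of all genes), and 30 of 30 were highest in CD8 lymphoma pool 1. The summed B cell level was 1976 to 2359 CPM in the CD4 controls, 940.0, 697 and 1049.7 CPM in CD4 lymphoma pools 1 to 3, 863 to 1085 CPM in the CD8 controls and 4749, 1099 and 601 CPM in CD8 lymphoma pools 1 to 3, and 0 of 30 members were at 0 in any knockout library. The list median ran from 1.92 to 3.69 with 1 pool left out and was 0.12 with the B cell score itself as covariate. The count of 4 became 0 without any 1 of the control pools, 2 and 25 without lymphoma pools 2 and 3, 1 with DESeq2 size factors, 18 with DESeq2 and 24 with limma-voom. Without a filter on low counts Cd79b and Ly6d did not pass (adjusted p = 0.131 and 0.138 by edgeR).

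Several genes that passed stand on none of the lists of other cell types but have known roles in B cells or antigen presenting cells. Mef2c, a transcription factor of B cell proliferation and of several other lineages, was read at 67.7, 71.2 and 75.2 CPM in the CD4 control pools, 45.1, 27.6 and 49.2 CPM in the CD4 lymphoma pools, 26.3, 25.7 and 37.2 CPM in the CD8 control pools and 176, 52.5 and 52.9 CPM in the CD8 lymphoma pools. All its CD4 lymphoma pools lay below the CD4 controls and all its CD8 lymphoma pools above the CD8 controls, which among the 24 genes held also for Fgd2, a guanine nucleotide exchange factor for Cdc42. For Fgd2 the margin in CD4 cells was small, from 31.9 CPM in the highest lymphoma pool to 32.9 CPM in the lowest control pool. Mef2c differed by 2.29 ± 0.38 (log2, SE, adjusted p = 0.04 by edgeR) and Fgd2 by 1.78 ± 0.26 (adjusted p = 0.0137). Without the genes of other cell types and immunoglobulin segments in the fit, 12 genes passed, Fgd2 among them, and Mef2c did not; Mef2c also missed without a filter on low counts (adjusted p = 0.129 by edgeR).

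Rasgrp3, a Ras activator downstream of the B cell receptor, was read at 7.72, 10.4 and 15.5 CPM in the CD4 control pools, 3.82, 1.13 and 0.789 CPM in the CD4 lymphoma pools, 3.82, 3.23 and 5.26 CPM in the CD8 control pools and 18.7, 6.16 and 1.37 CPM in the CD8 lymphoma pools. It shows the CD4 side of the pattern, with the CD4 lymphoma pools below the controls and the CD8 lymphoma pools on both sides of theirs. Its difference of 3.46 ± 0.44 (log2, SE) had an adjusted p of 0.0062 by edgeR. The sulfotransferase Chst3 (3.83 ± 0.66, adjusted p = 0.0401, and 0.0918 without a filter), the co-stimulatory receptor Cd40 (2.22 ± 0.40, adjusted p = 0.04), the elongation factor Ell3 (2.85 ± 0.44, adjusted p = 0.0158) and Pxdc1 (2.91 ± 0.53, adjusted p = 0.0439) had that form too. Swap70, a B cell switch-recombinase-associated protein that is also on the regulatory T cell list, differed by 2.04 ± 0.35 (adjusted p = 0.04). Bcl11a, a transcription factor of early B cells and dendritic cells, differed by 1.60 ± 0.27 (adjusted p = 0.04), and there CD4 lymphoma pool 3 held 81.5 CPM against 42.8 to 56.2 CPM in the CD4 controls.

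A second form, with CD8 lymphoma pools all above their controls and CD4 pools overlapping, was seen in 7 of the 24 genes. The form of Ciita, with CD4 lymphoma pools all below and CD8 overlapping, was seen in 13. Of all genes tested, 14.5% had CD8 lymphoma pools all above and 9.73% had CD4 lymphoma pools all below, and the joint forms were not counted there. Because the 24 genes were chosen on a higher CD8 than CD4 response, such forms are partly built in. Tiam1, the exchange factor that activates Rac in T cell migration and polarity (chr16:89787111-90143769), was an example of the second form. Its level was 43.6, 36.9 and 44.5 CPM in the CD4 control pools, 48, 38.6 and 51.6 CPM in the CD4 lymphoma pools, 4.43, 4.19 and 5.14 CPM in the CD8 control pools and 16.4, 13.3 and 15.5 CPM in the CD8 lymphoma pools. The CD4 groups overlapped and every CD8 lymphoma pool lay above every CD8 control, while all CD8 pools stayed below all CD4 pools. The response differed by 1.57 ± 0.23 (log2, SE, adjusted p = 0.0137 by edgeR), and by 0.37 in wild-type mice. The difference for Tiam1 was 1.51 with the B cell score and 1.47 with the erythroid score as covariate, neither of which passed (adjusted p = 0.334 and 0.316).

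Bcl2a1d, of the anti-apoptotic A1 family (chr9:88723285-88731914), was read at 34.5, 40.7 and 35.4 CPM in the CD4 control pools, 75.6, 48.6 and 50.6 CPM in the CD4 lymphoma pools, 15.1, 18.1 and 14.1 CPM in the CD8 control pools and 78.8, 67.2 and 63.5 CPM in the CD8 lymphoma pools. Lymphoma pools lay above controls in both cell types, by more in CD8, and the difference was 1.51 ± 0.22 (log2, SE, adjusted p = 0.0149 by edgeR). It was 1.76 with the B cell score and 1.69 with the erythroid score as covariate (adjusted p = 0.274 and 0.271). The family has near-identical copies among which reads may be split, so the value of Bcl2a1d is uncertain. Its copies Bcl2a1b and Bcl2a1a had differences of 0.65 ± 0.20 and 0.19 ± 0.63 and did not pass (adjusted p = 0.292 and 0.991).

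Trib1, a pseudokinase that directs proteins to degradation, was read at 48.1, 56.9 and 51.4 CPM in the CD4 control pools, 76.2, 57.3 and 58.1 CPM in the CD4 lymphoma pools, 15.7, 18.5 and 16.0 CPM in the CD8 control pools and 119.9, 43.6 and 49.8 CPM in the CD8 lymphoma pools. Its lymphoma pools too were above the controls in both cell types, and the response differed by 1.66 ± 0.26 (log2, SE, adjusted p = 0.0214 by edgeR). Isg20 was read at 14.0, 34.5 and 23.6 CPM, 22.5, 30.6 and 36.4 CPM, 4.28, 6.94 and 4.65 CPM, and 51.7, 25.4 and 22.1 CPM in the same order. The CD4 pools of Isg20 overlapped and all its CD8 lymphoma pools were above the CD8 controls, a difference of 2.22 ± 0.40 (adjusted p = 0.0457, and 0.0624 without a filter). March1, a ubiquitin ligase that removes class II molecules from the cell surface, differed by 1.67 ± 0.29, Wdfy4, needed by dendritic cells for cross-presentation, by 1.53 ± 0.27, both with an adjusted p of 0.04, and Fam214b by 1.65 ± 0.25 (adjusted p = 0.0149). Among the 24 genes, the value with the B cell score as covariate was 116% of the value without it for Bcl2a1d and 95.7% for Tiam1, and it ran from 23.8% for H2-DMb2 to 68.5% for Rasgrp3 in the other 22. Of these, Cd79b, Ly6d, Bank1 and Fcrl1 are themselves part of the score, so a smaller value for them is built in.

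**Figure D2:**
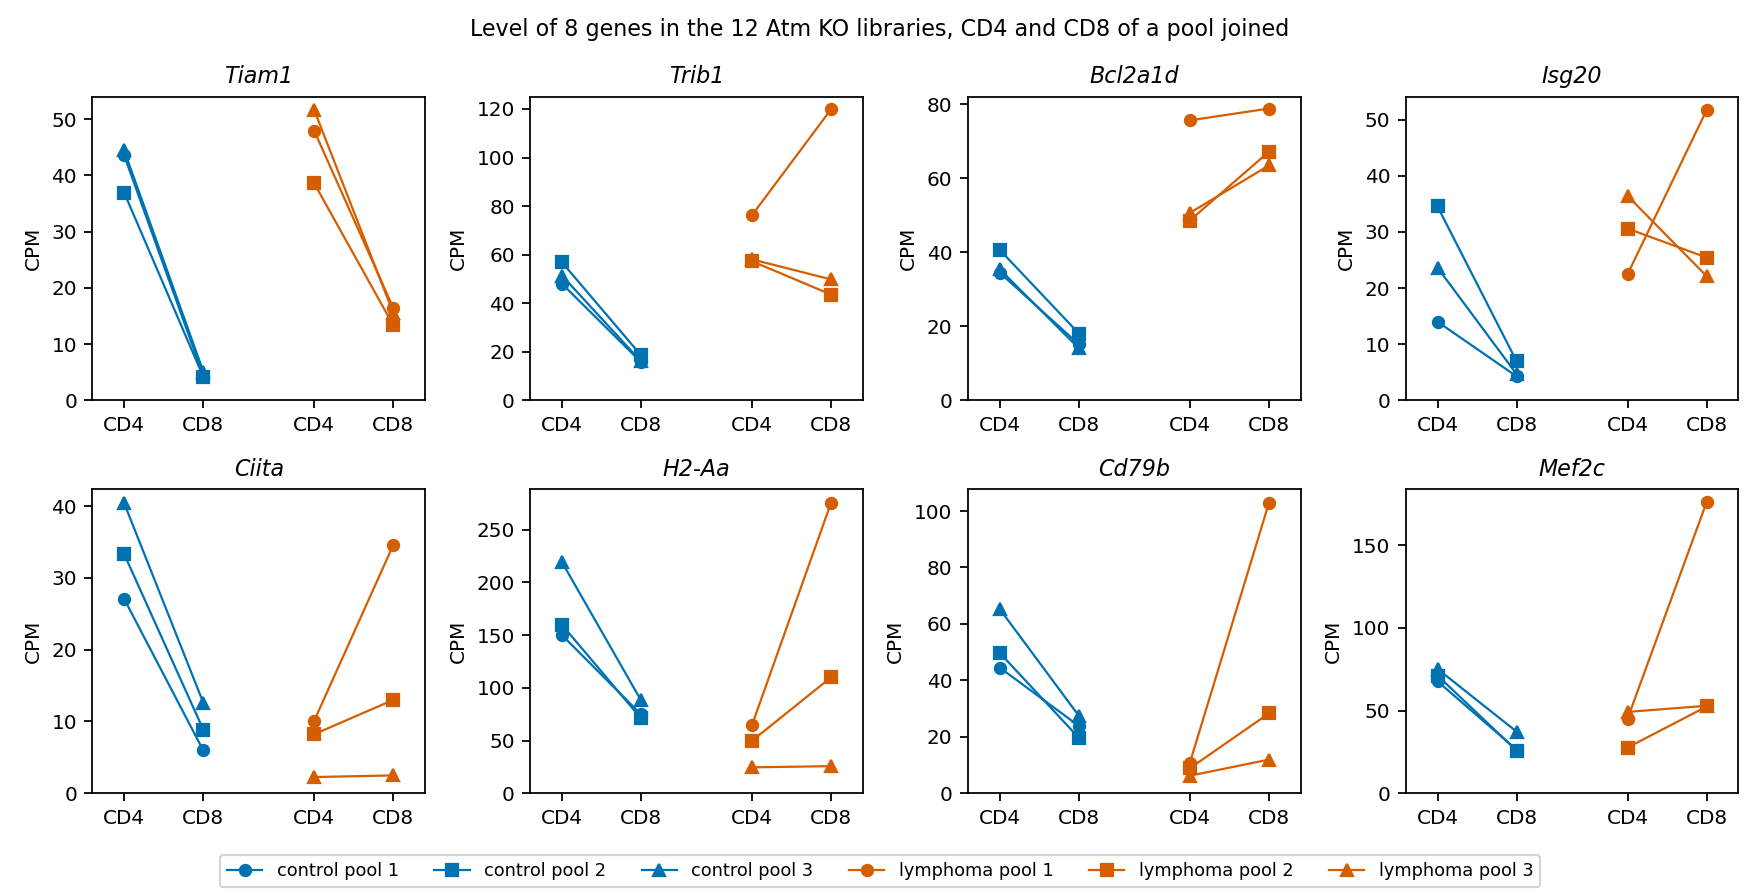
CPM of 8 genes in the 12 Atm knockout libraries, with control pools in blue, lymphoma pools in orange and a line joining the CD4 and CD8 library of a pool. Ciita, H2-Aa and Cd79b are lower in all CD4 lymphoma pools than in the CD4 controls and widely spread in CD8 lymphoma pools, whereas Tiam1 lies at 13.3 to 16.4 CPM in the CD8 lymphoma pools against 4.19 to 5.14 CPM in the CD8 controls.

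The last 2 of the 25 genes rest on libraries with few or no counts. Rps16-ps2, a processed pseudogene whose sequence is close to that of the ribosomal protein gene Rps16, had 0, 407 and 239 counts in the CD4 control pools, 0, 63 and 125 counts in the CD8 lymphoma pools and 0 in the other 6 libraries. Its pools overlap and it takes no fold change, although its adjusted p was 0.00327 by edgeR. Cyp4b1, a cytochrome P450, had 8, 80 and 32 counts in the CD4 control pools, 9, 6 and 3 in the CD4 lymphoma pools, 0, 3 and 2 in the CD8 control pools and 71, 10 and 4 in the CD8 lymphoma pools. Its fitted difference of 5.92 ± 0.83 (log2, SE, adjusted p = 0.0137) depends on how counts near 0 are treated.

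**Figure D3:**
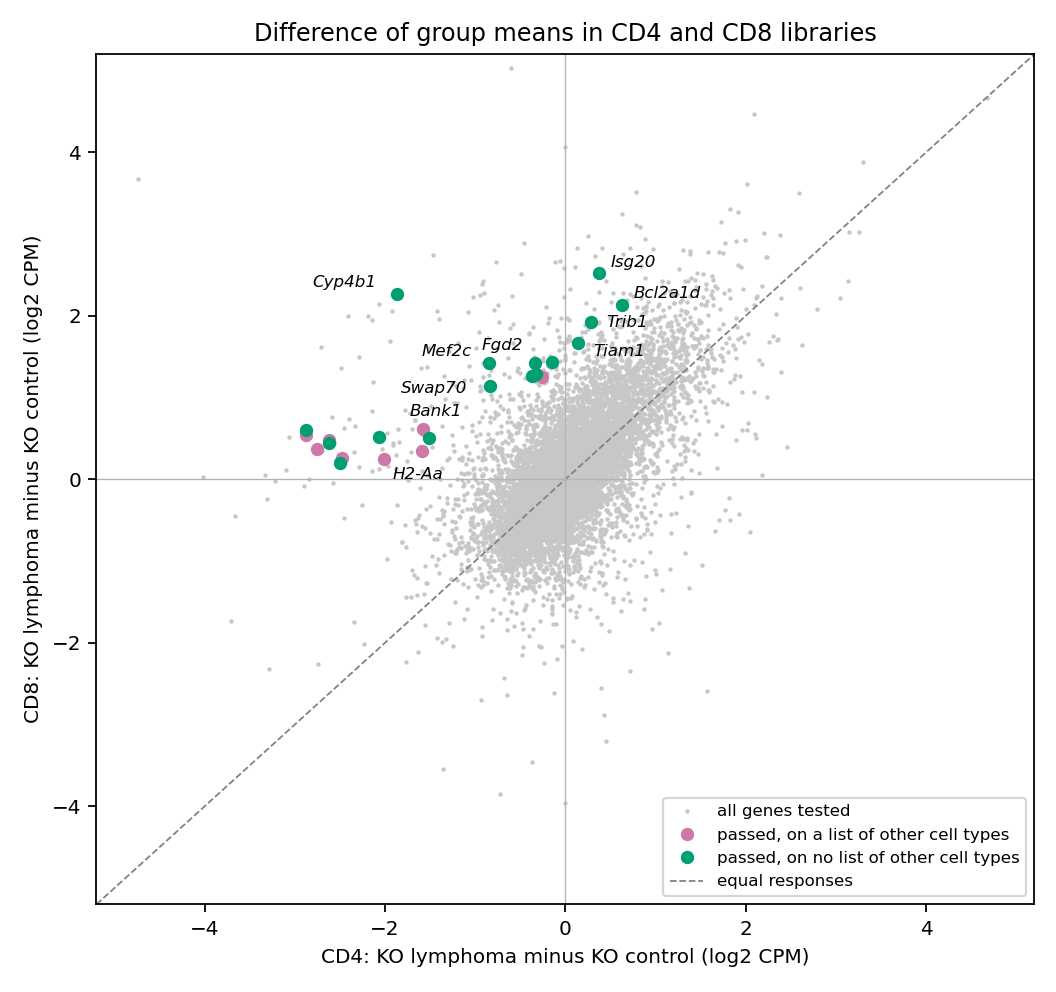
Lymphoma minus control difference of mean log2 CPM in CD4 (horizontal axis) and CD8 libraries (vertical axis) of Atm knockout mice, with a grey point for each gene tested, coloured points for 24 that passed, by whether they are on a list of another cell type, and a dashed line of equal responses. The coloured points lie above the line because the genes were chosen on this difference, and 12 have the larger change in CD4 and 12 in CD8 cells.

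Red cell genes had the highest list median, and 0 of 22 tested passed. The median was 3.36 in knockout and -0.12 in wild-type mice, and 21 of 22 lay above 0. By edgeR 17 were higher at an unadjusted p under 0.05, against 5.76% of all genes tested. DESeq2 called 8 and limma-voom 14, all higher. The list median ran from 2.43 without lymphoma pool 1 to 4.46 without lymphoma pool 3. Hbb-bs, an adult beta globin, was read at 1783, 12349 and 6977 CPM in the CD4 control pools, 2160.3, 772 and 977 CPM in the CD4 lymphoma pools, 484, 1241 and 771 CPM in the CD8 control pools and 24830.0, 3159 and 375 CPM in the CD8 lymphoma pools. Both arms overlap, and the difference was 4.34 ± 1.21 (log2, SE, adjusted p = 0.307 by edgeR). The red cell enzyme Bpgm had 3.08 ± 0.57 (adjusted p = 0.0981). The summed list was 5015 to 34697 CPM in the CD4 controls, 2270.3 to 6013 CPM in the CD4 lymphoma pools, 1331 to 3677 CPM in the CD8 controls and 70045, 8484 and 1575 CPM in CD8 lymphoma pools 1 to 3, with the membrane protein gene Epb42 at 0 in at least 1 library.

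The remaining lists of other cell types had no member that passed by edgeR, apart from Ly6d and Wdfy4 on the dendritic cell list of 14. For the neutrophil list of 21 the median was 1.14 in knockout and -0.61 in wild-type mice, and it was 2.02 in knockout without control pool 2. By edgeR 10 members were higher at an unadjusted p under 0.05 (5.76% of all genes tested), and DESeq2 called 1 and limma-voom 6. S100a8, a neutrophil calcium-binding protein, was read at 26.3, 20.7 and 30.7 CPM in the CD8 control pools and 2039.5, 248 and 50.9 CPM in the CD8 lymphoma pools, a difference from the CD4 response of 2.83 ± 0.96 (log2, SE, adjusted p = 0.464 by edgeR). The summed neutrophil list was 260.2 to 287 CPM in the CD4 controls, 303 to 944 CPM in the CD4 lymphoma pools, 129 to 177 CPM in the CD8 controls and 513 to 4130.3 CPM in the CD8 lymphoma pools, with Cebpe at 0 in at least 1 library. The median was 1.06 for 13 plasma cell genes, of which Ighg1 and Iglv1 were at 0 in at least 1 library, 0.66 for the dendritic cell list, 0.45 for 35 monocyte and macrophage genes (0.55 in wild-type mice), -0.09 for 18 platelet genes and -0.28 for 23 blood progenitor genes. The plasma cell median was 0.56 without lymphoma pool 1, 1.71 without control pool 1 and 2.13 without lymphoma pool 3, and the dendritic cell median 1.17 without lymphoma pool 3. DESeq2 and limma-voom each called 1 blood progenitor gene, and DESeq2 called 1 monocyte gene. Of the 24 genes that passed, 8 are on these lists and 16 are not. Beyond the covariates and the removal of their genes given above, the part of these cells in the result was not tested.

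**Figure D4:**
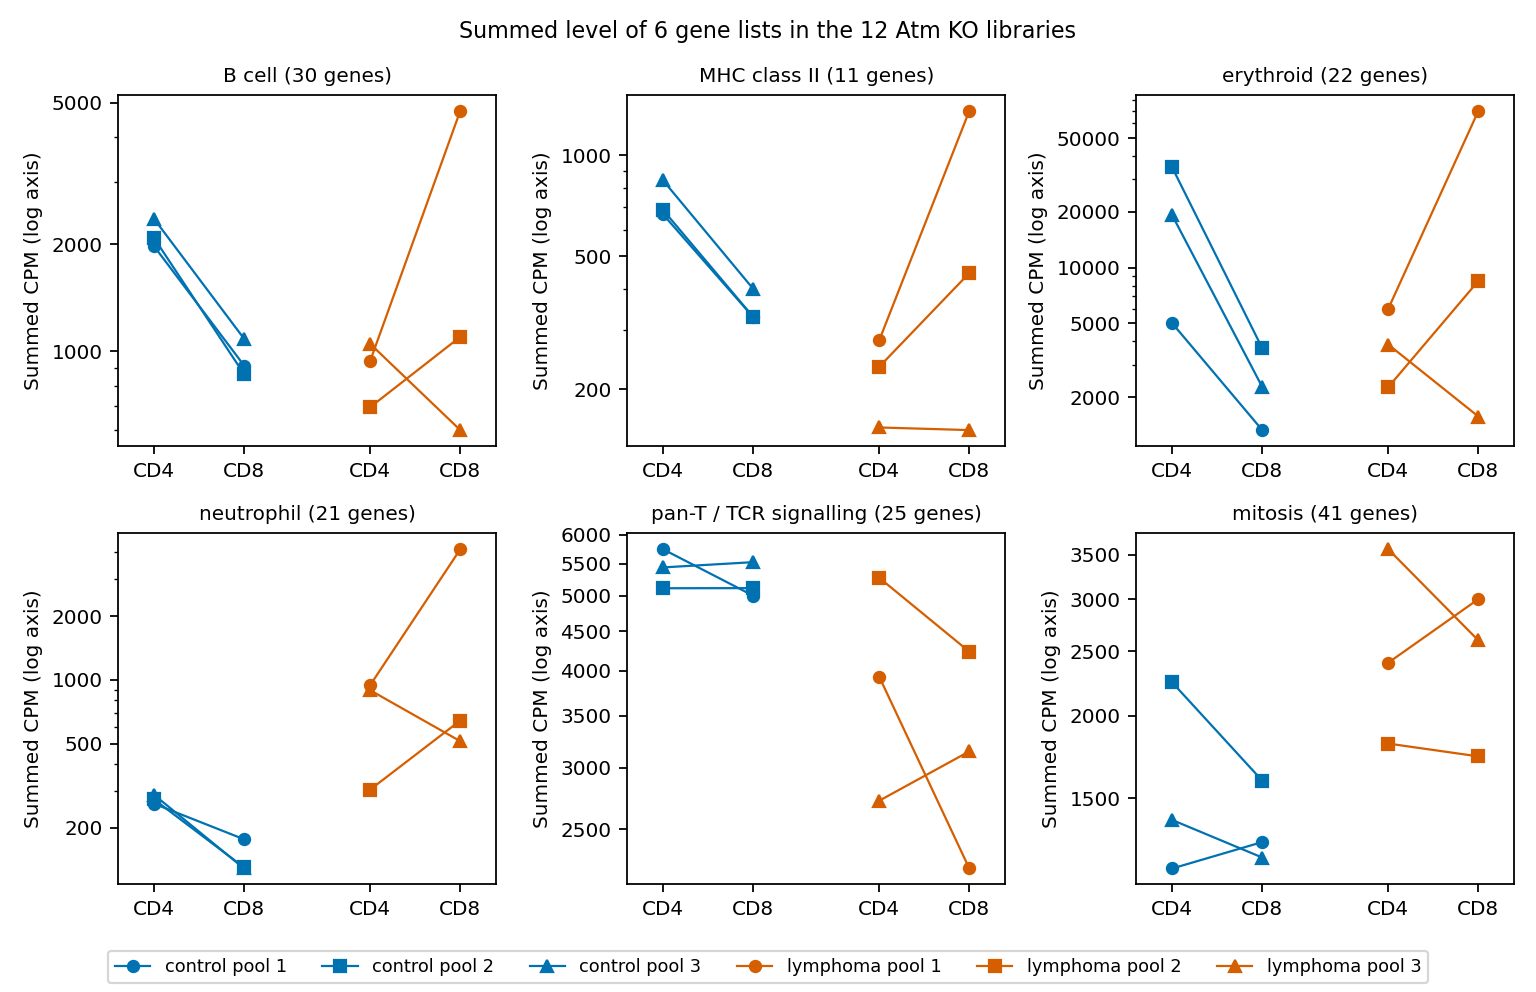
Summed CPM (log axis) of 6 gene lists in the 12 Atm knockout libraries, with control pools in blue, lymphoma pools in orange and a line joining the CD4 and CD8 library of a pool. The CD8 library of lymphoma pool 1 is highest in the B cell, MHC class II, erythroid and neutrophil lists, at 4749, 1357, 70045 and 4130.3 CPM, and lowest in the pan-T cell list, at 2224 CPM.

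Lists of T cell state held few genes that passed. Of 71 type I interferon response genes Isg20 was the 1 that passed by edgeR, and the median was 0.11 against 0.01 over all genes. The median response of the list was 0.38 in CD4 and 0.50 in CD8 cells. The antiviral protein gene Rsad2 had a difference of 2.76 ± 0.65 (log2, SE, adjusted p = 0.209 by edgeR, 0.00681 by DESeq2 and 0.00308 by limma-voom) and the surface antigen Ly6a 0.83 ± 0.21 (adjusted p = 0.166). Ly6c2, also on the list, was lower by DESeq2 (adjusted p = 0.0173). Of 33 interferon gamma response genes Ciita was the 1 that passed by edgeR, DESeq2 and limma-voom, and the median was 0.06.

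None of 29 cytotoxic effector genes passed by edgeR, DESeq2 or limma-voom, 3 reached an unadjusted p under 0.05 by edgeR, with a median of 0.16. The death ligand Fasl had 0.55 (log2, adjusted p = 0.666 by edgeR) and Tnfsf10 -0.85 (adjusted p = 0.281). Among 26 killer lectin receptor and NK cell genes 0 passed and 24 lay above 0, with a median of 0.69 in knockout and 0.26 in wild-type mice, and 0.41 in knockout without lymphoma pool 2. By edgeR 9 were higher at an unadjusted p under 0.05 (5.76% of all genes tested), and DESeq2 and limma-voom called 0. Granzyme A, Gzma, was read at 324, 258 and 296 CPM in the CD4 control pools, 136, 136 and 64.5 CPM in the CD4 lymphoma pools, 437, 351 and 258 CPM in the CD8 control pools and 222, 364 and 108 CPM in the CD8 lymphoma pools. The CD4 lymphoma pools were below their controls and the CD8 pools overlapped, and the difference of 0.73 ± 0.34 did not pass (adjusted p = 0.67). The summed NK list was 1759 to 1945 CPM in the CD4 controls, 881 to 1218 CPM in the CD4 lymphoma pools, 2969.8 to 3364 CPM in the CD8 controls and 2049 to 3189 CPM in the CD8 lymphoma pools.

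Of 41 mitosis genes 0 passed by edgeR, DESeq2 called 0 and limma-voom 1 (Nusap1), with a median of 0.51 in knockout and -0.24 in wild-type mice. At an unadjusted p under 0.05 by edgeR, 10 were higher and 1 lower, against 5.76% and 1.73% of all genes tested. Both responses were above 0, with medians of 0.88 in CD4 and 1.32 in CD8 cells. The spindle gene Nusap1 had a difference of 1.16 ± 0.31 (log2, SE, adjusted p = 0.209 by edgeR) and the chromosomal passenger Birc5 0.93 ± 0.28 (adjusted p = 0.29). Their summed level reached 3566 CPM in CD4 lymphoma pool 3 and 2999 CPM in CD8 lymphoma pool 1, and 28 of the 41 were highest in CD4 lymphoma pool 3. The list median was 0.13 without lymphoma pool 1 and 0.84 without lymphoma pool 3. The 38 S phase genes had a median of 0.09, and 33 of them were highest in CD4 lymphoma pool 3.

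Among immediate early genes 0 of 31 passed by edgeR and 25 lay above 0, with a median of 0.34. Of these 8 were higher at an unadjusted p under 0.05 by edgeR (5.76% of all genes tested), DESeq2 called 1 (Rgs2) and limma-voom 0. The signalling regulator Rgs2 had 0.81 ± 0.20 (log2, SE, adjusted p = 0.168 by edgeR) and the quiescence factor Klf4 0.74 ± 0.19 (adjusted p = 0.192), close to the 0.71 of Klf4 in wild-type mice. The receptor chain Ifngr2, on the list of cytokine receptors, had 0.78 ± 0.16 (adjusted p = 0.0881 by edgeR and 0.0269 by limma-voom) and the ectoenzyme Cd38 1.27 ± 0.31 (adjusted p = 0.157 and 0.0271). Swap70 was the 1 member of 20 regulatory T cell genes that passed, with a list median of 0.33 in knockout and -0.37 in wild-type mice. The interleukin 2 receptor chain Il2ra had 0.78 ± 0.26 in knockout (adjusted p = 0.349) and -0.80 in wild-type mice.

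None of 25 genes common to T cells passed by edgeR, DESeq2 or limma-voom, and 1 reached an unadjusted p under 0.05 by edgeR. Of the 25, 24 lay below 0, with a median of -0.27, which was -0.04 without lymphoma pool 1 and -0.52 without lymphoma pool 3. The CD8 lymphoma pools were below the CD8 controls in 19 of them (12.2% of all genes tested) and the CD4 lymphoma pools below the CD4 controls in 7 (9.73%), with median responses of -0.75 and -0.47. By their mean log2 CPM, the CD8 minus CD4 difference was -0.183, -0.117 and -0.0654 in the control pools and -0.91, -0.343 and 0.139 in the lymphoma pools, so that pool 3 lay above the controls. The receptor chain Cd3e was read at 185, 175 and 203 CPM in the CD8 control pools and 77.9, 132 and 83.2 CPM in the CD8 lymphoma pools, and its difference from the CD4 response was -0.54 ± 0.22 (log2, SE, adjusted p = 0.546 by edgeR). Cd8b1 was read at 619, 572 and 621 CPM in the CD8 control pools and 183, 447 and 364 CPM in the CD8 lymphoma pools, with -0.997 ± 0.34 (adjusted p = 0.395). For both genes all CD8 lymphoma pools lay below all CD8 controls. The medians were -0.21 for 14 CD8 lineage genes and 0.08 for 15 CD4 lineage genes.

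By edgeR no gene passed on the lower side. DESeq2 called 2, Bace1 (adjusted p = 0.0237) and Ly6c2 (adjusted p = 0.0173), limma-voom 0, and edgeR without a filter on low counts 1, Bace1 (adjusted p = 0.0443). Without lymphoma pool 2 edgeR called 1 lower gene, Etfa, named after its value was seen. By smallest unadjusted p, among genes of at least 5 CPM in 1 knockout group and without overlap between pools, the protease Bace1 came first. It was read at 0.953, 1.01 and 0.327 CPM in the CD4 control pools, 1.85, 1.85 and 5.75 CPM in the CD4 lymphoma pools, 8.1, 5.98 and 5.75 CPM in the CD8 control pools and 1.44, 5.13 and 9.07 CPM in the CD8 lymphoma pools. The CD4 lymphoma pools lay above their controls and the CD8 pools overlapped, with a difference of -2.45 ± 0.51 in knockout (log2, SE, adjusted p = 0.0905 by edgeR) and -2.22 in wild-type mice. The potassium channel gene Kcnc1 (-1.65 ± 0.42, adjusted p = 0.168), the lysosomal mannosidase Manba (-2.14, adjusted p = 0.168), the amino acid transporter Slc6a19 (-1.69 ± 0.44, adjusted p = 0.188) and Frrs1 (-0.73 ± 0.19, adjusted p = 0.202) followed.

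Bbc3, which encodes the pro-apoptotic protein Puma, was read at 52.2, 42.8 and 45.9 CPM in the CD4 control pools, 39.4, 41.5 and 38.8 CPM in the CD4 lymphoma pools, 144, 110.3 and 117 CPM in the CD8 control pools and 53.5, 68.5 and 83.5 CPM in the CD8 lymphoma pools. All its lymphoma pools were below the controls, by more in CD8, and the difference of -0.64 ± 0.17 (log2, SE) had an adjusted p of 0.209 by edgeR. Ly6c2, a surface antigen of activated and memory CD8 cells, had -1.13 ± 0.32 in knockout (adjusted p = 0.259) and -1.23 in wild-type mice. The hedgehog receptor Ptch1 (-0.59), Foxn2 (-0.74), the anion transporter Slc26a11 (-0.72), the ubiquitin-conjugating enzyme Ube2d1 (-0.65) and the mitochondrial ribosomal gene Mrpl57 (-0.68) had adjusted p from 0.246 to 0.274.

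The other lists had no member that passed by edgeR. Their medians were -0.04 for 12 MHC class I genes, -0.02 for 27 naive T cell genes, 0.06 for 32 memory genes, 0.19 for 18 inhibitory checkpoint genes, 0.30 for 17 follicular helper genes (-0.36 in wild-type mice), 0.20 for 10 gamma-delta T cell genes and 0.11 for 35 cytokine receptor genes. They were 0.10 for 32 p53 target genes, 0.05 for 33 DNA damage response genes, 0.03 for 20 heat shock genes, 0.20 for 21 endoplasmic reticulum stress genes, 0.05 for 26 glycolysis genes, -0.00 for 65 oxidative phosphorylation genes, 0.21 for 24 antioxidant genes and -0.09 for 5 ribosomal stalk genes. Across the T cell lists DESeq2 also called the memory gene S100a4 and Ly6c2, the CD4 factor Zbtb7b, the antioxidant enzyme Gpx1, the glycolysis list member Bpgm and Blk of the gamma-delta list, and limma-voom called Cat, Pou2af1, Bpgm, Blk, Ifngr2 and Cd38. The hydrogen peroxide enzyme Cat had 0.81 ± 0.19 (log2, SE, adjusted p = 0.133 by edgeR).

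**Figure D5:**
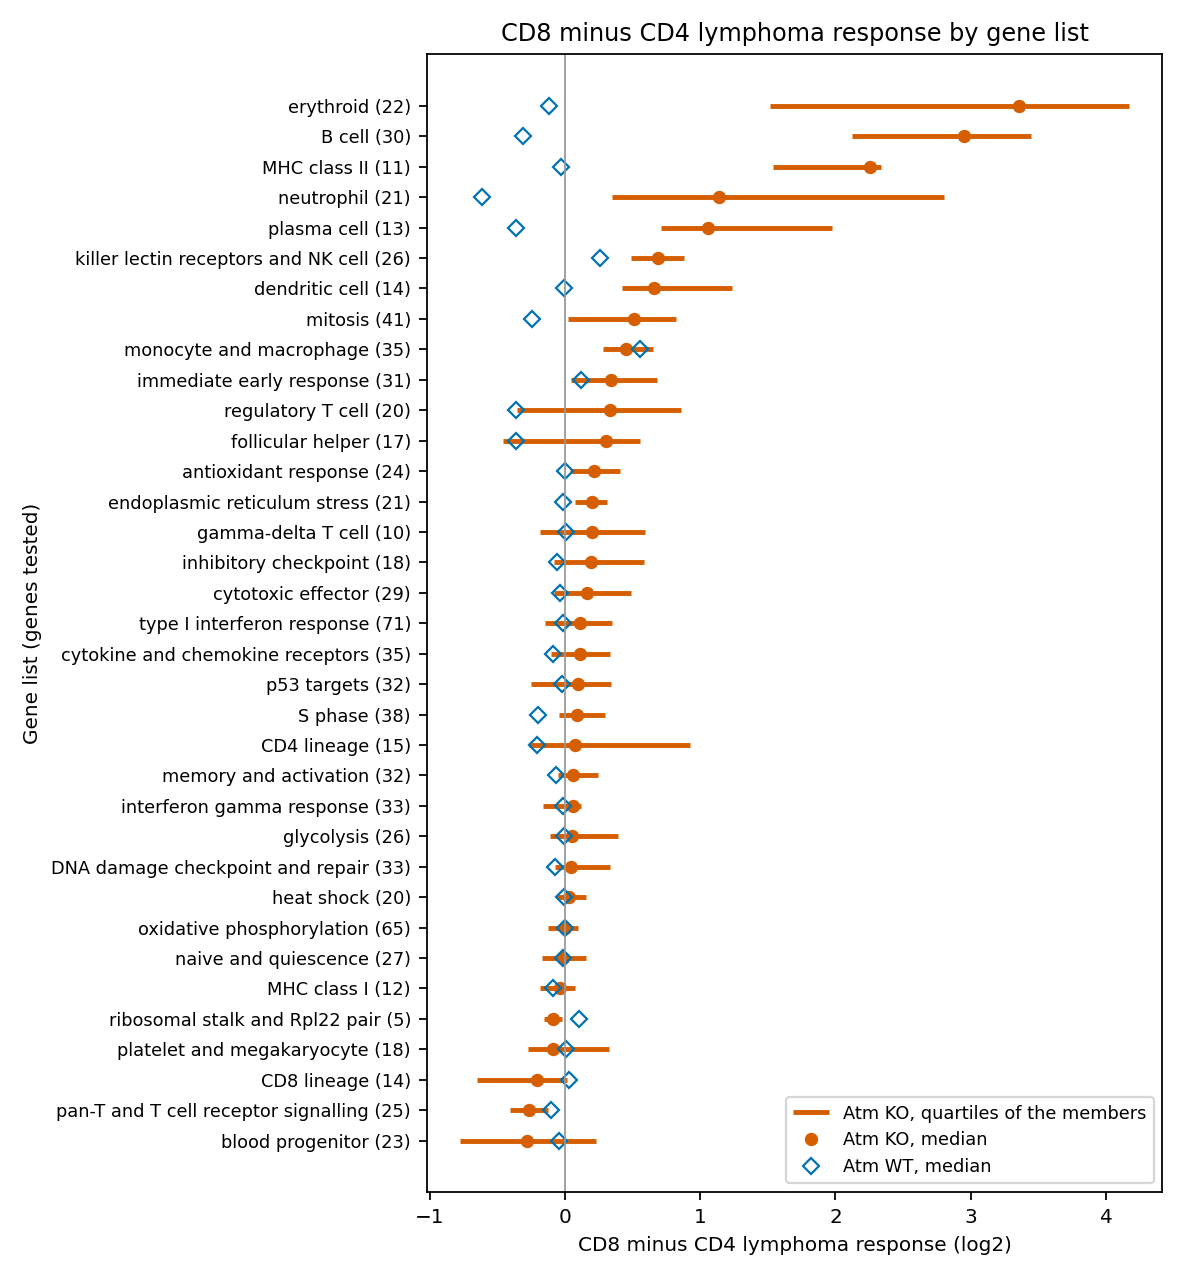
Difference between the CD8 and CD4 lymphoma responses (horizontal axis, log2) by gene list, with medians in Atm knockout (filled circles, bars for the quartiles of the members) and wild-type mice (open diamonds). Erythroid, B cell and MHC class II genes lie highest in knockout, at 3.36, 2.95 and 2.26, with wild-type medians of -0.12, -0.31 and -0.03.

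In wild-type mice the same contrast gave 0 genes of 13232 (0%) by edgeR, by DESeq2 and by limma-voom. At an unadjusted p under 0.05 edgeR gave 365 genes, 182 higher and 183 lower. The 24 knockout genes had a wild-type median of 0.00, with 12 above 0 and 12 below. The direct test of the knockout difference against the wild-type difference also gave 0 genes (0%) by edgeR, 520 that reached an unadjusted p under 0.05, a smallest adjusted p of 0.366, and 15 genes by DESeq2 and 25 by limma-voom. The 15 include Ciita, H2-Aa, H2-DMb2, Cd79b, Bank1, Ly6d, Mef2c, Pxdc1 and Rasgrp3. For none of the 24 genes did the knockout minus wild-type value pass the adjustment, and since the genes were chosen on the knockout difference their sign in it carries no separate information. The response of CD8 against CD4 cells was not shown by edgeR to differ between genotypes in any gene. The summed B cell list of the wild-type libraries was 468, 754 and 1561 CPM in the CD4 control pools and 843, 752 and 728 CPM in the CD4 lymphoma pools, and 429.7, 776 and 1520.5 CPM and 771, 543 and 509 CPM in the CD8 libraries in the same order.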

How the data were processed

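The 24 libraries are 3′ tag RNA-seq (QuantSeq) of splenic T cells, with 1 library from the CD4 and 1 from the CD8 cells of each pool. The authors deposited a table of estimated counts per gene for which Salmon 0.11.3 is the tool named, per the submitters' processing notes, with its role not stated. The notes name the build GRCh38, a human one, while the table holds mouse genes; positions printed here are those of the mouse annotation on GRCm38. The alignment settings and transcript set are not given. The table lists 34113 genes, and 2 were dropped because 1 cell each held a letter in place of a number, and 11473 of the other 34111 had no count.

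Estimated counts were rounded, filtered (filterByExpr, minimum count 10, minimum total 15, which left 13232 genes) and scaled by TMM. All 24 libraries entered 1 edgeR 4.0.16 robust quasi-likelihood fit (R 4.3.3) with the 12 mouse pools as block and a CD8 effect for each genotype and condition, which left 8 residual degrees of freedom. The shared spread and the comparison with wild-type mice thus rest on units of 1, 2 or 3 mice. The call was a Benjamini-Hochberg adjusted p under 0.05 over all genes tested. Each SE is the absolute log2 difference divided by the square root of the quasi-likelihood F. It thus rests on the shared spread of all 12 pools, wild-type pools included, and not on the knockout pools alone. CPM are TMM-scaled, and log2 CPM uses a prior count of 2. Responses of 1 cell type alone lie between pools and are differences of mean log2 CPM without a test. The CD4 and CD8 library of a pool come from the same mice by label. Their residuals correlated at 0.0871 (control pool 1) to 0.525 over the 6 knockout pools and at -0.0181 to 0.525 over all 12. In knockout control pool 1 the sex-linked genes did not match between the 2 libraries. The script was tested on simulated data.

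The comparison, its members and the gene lists were chosen with earlier results of these data known. Named were the 12 highest and 12 lowest differences among genes that passed, at 5 CPM or more in 1 knockout group, without overlap between pools, and outside antigen receptor segments, predicted genes and lists of other cell types, filled by smallest p where fewer passed; from each list up to 4 genes that passed, 3 of smallest p and 3 of highest level; and, beyond this rule, all 25 genes that passed. Alternatives were other size factors, no filter or at least 30 counts in 3 libraries, DESeq2 1.42.0, voom with sample weights (limma 3.58.1), no block, knockout libraries alone, removal of genes of other cell types, each pool left out and, added after the data were seen, B cell or erythroid scores as covariates.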

Additional observations from a re-analysis of the deposited data

Results flagged for a closer look

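For 5 gene lists all 3 knockout lymphoma pools lay on one side of their control mean and all 3 wild-type lymphoma pools on the other side of theirs. Each value is the pool's CD8 minus CD4 list score (mean log2 CPM) less the mean of its genotype's control pools. Every gene list named above was screened in this way, but not the sex-linked genes. For B cell genes the values were 4.09, 2.57 and 0.83 in the knockout pools and -0.06, -0.5 and -0.36 in the wild-type pools, a knockout minus wild-type difference of 2.8. For red cell (erythroid) genes they were 4.16, 3.08 and 0.71 against -0.04, -0.2 and -0.04, a difference of 2.74. For MHC class II genes they were 3.07, 1.82 and 1.03 against -0.14, -0.06 and -0.03, a difference of 2.05. For neutrophil genes they were 1.91, 1.29 and 0.1 against -0.15, -0.8 and -0.56, a difference of 1.6. For inhibitory checkpoint receptors of T cells they were 0.11, 0.47 and 0.13 against -0.12, -0.08 and -0.11, a difference of 0.338. These differences between genotypes were not tested at the level of the lists, and pool 3 is the lowest of the knockout pools in 4 of the 5. The scatter of the control pools was not part of the rule. Wild-type lymphoma scores lay within the wild-type controls for MHC class II (0.05 to 0.16 against -0.07 to 0.56) and checkpoint genes (-0.58 to -0.54 against -0.61 to -0.27). For erythroid genes wild-type pools 1 and 3 lay within (-0.304 and -0.301 against -0.460 to -0.096) and pool 2 just below (-0.462). Wild-type pool 1 lay within for B cell (-0.081 against -0.085 to 0.082) and neutrophil genes (-0.684 against -0.743 to -0.189), with pools 2 and 3 below. Knockout pool 3 lay within the knockout controls for erythroid (-1.20 against -2.54 to -1.18) and neutrophil genes (-0.85 against -1.18 to -0.74). For the other lists every knockout lymphoma pool lay above every knockout control.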

How the results depend on the processing

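The count of 25 genes stayed within 1.5 times with upper-quartile factors, without a filter, with the stricter filter and without lymphoma pool 1, with 24, 18, 25 and 14 of the 25 genes shared. Without a filter Cd79b, Ly6d, H2-Aa, H2-DMb2, Mef2c, Chst3 and Isg20 no longer passed (adjusted p 0.0624 to 0.143 by edgeR). The count was 11 with DESeq2 size factors, 92 with DESeq2, 142 with limma-voom, 12 with genes of other cell types and immunoglobulins removed, 0 with no replicate block, 1 with the 12 knockout libraries and replicate block (Rps16-ps2), and 1 with either the B cell or the erythroid score as covariate (Gm14586, not among the 25). With 1 pool left out it ran from 1 (control pool 2, with Rps16-ps2 alone) to 189 (lymphoma pool 3), and was 4, 2 and 14 without control pools 1 and 3 and lymphoma pool 2. The wild-type count was 0 under every alternative run. The knockout minus wild-type count of 0 became 1 with no filter and with either covariate, 15 with DESeq2, 25 with limma-voom and 0 to 56 with 1 pool left out, the 56 without knockout lymphoma pool 3. The cause of these shifts was not tested.

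Among the named genes followed through all settings, changes of sign were seen under the covariates, and the cause was not tested. With the B cell score these were Irf8 (-0.021), Cd3e (0.16), Top2a (-0.22), Gpx1 (-0.018), Prdx2 (-0.10), Ighm (-0.90), Igkc (-1.10), S100a8 (-0.21), S100a9 (-0.11) and Hba-a2 (-0.061), and with the erythroid score Cd3e (0.11), Top2a (-0.023), Blk (-0.14), Ighm (-0.51) and Igkc (-0.56). How far depth limits these results was not tested.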

Other observations

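Without lymphoma pool 3, 12 genes had a lower lymphoma response in CD8 than in CD4 cells and 177 a higher one (edgeR, adjusted p under 0.05). The 12 include the CD8 co-receptor chain Cd8b1 (-1.43 on the log2 scale), the receptor chain Cd3e (-0.83), the surface glycoprotein Thy1 (-0.72), the transcription factor Tcf7 of naive and memory cells (-0.74), the Tec-family kinase Txk (-0.69) and Bbc3 (-0.81), and they were named after their values were seen. With all pools these genes did not pass, and 0 of the 12 are on lists of other cell types. Of the 177, which are 1.32% of the 13455 genes tested in that fit, 59 are on such lists, among them 25 of 30 B cell, 16 of 22 erythroid, 9 of 11 MHC class II and 6 of 21 neutrophil genes. In CD4 lymphoma pool 3 Thy1 was at 66.6 CPM, Tcf7 at 257 CPM and Txk at 45.9 CPM, each the lowest of the 6 CD4 knockout libraries.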
